A study of Mus musculus with 6 samples.

Results

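Matrix metalloproteinases, their tissue inhibitors, lysyl oxidases and transforming growth factor beta 1 were examined in the quadriceps of AR97Q mice with and without exercise. The set held 10 genes, the proteases Mmp2, Mmp9 and Mmp14, the inhibitors Timp1, Timp2, Timp3 and Timp4, the crosslinking enzymes Lox and Loxl1, and the growth factor gene Tgfb1. They were chosen by function, with earlier results of these data known, and were found by matching the transcript accession of each array probe to these symbols. All 10 were among the 25005 genes and transcripts tested, and they were represented by 16 probes, of which 15 were well above background on all 6 arrays.

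The AR97Q mouse carries a human transgene with an expanded CAG repeat and develops a disease like human SBMA (spinal and bulbar muscular atrophy). All 6 mice were males on a C57BL/6J background, all carried the transgene, and their muscles were taken at 9 weeks of age, around the onset of motor deficits. The 3 mice of the exercise group ran on a forced wheel for 4 weeks from 5 weeks of age, 60 min/day and 5 days/week at a speed of 5 m/min. The 3 mice of the sedentary group did not run, and no array of wild-type muscle was analysed here.

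Skeletal muscle fibres sit in a basement membrane and a collagen-rich connective tissue that are steadily broken down and rebuilt. Matrix metalloproteinases (MMPs) cut collagens, gelatins and other matrix proteins, and are held in check by the tissue inhibitors of metalloproteinases (TIMPs). Lysyl oxidases join collagen and elastin chains into stable fibres, and TGF-beta 1 is a growth factor known for raising the synthesis of matrix. In muscle these genes are best known from repair after injury, from fibrosis and from the adaptation of tendon and muscle to loading. The comparison addressed whether their RNA differed after 4 weeks of early exercise in this model.

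None of the 10 genes passed the test between the exercise and sedentary groups. A gene was called at an adjusted p under 0.05 in limma, with Benjamini-Hochberg adjustment over all genes tested. That rule called 17.6% of the 25005 genes and transcripts and 0 of the 10 members. The rule of the paper's methods, which also asks for 1 or more in the absolute log2 fold change, called 2.78% of all genes and 0 members. The exercise and sedentary arrays did not overlap for 43.2% of all genes, and overlapped for each of the 10 members. In the fit reported, an unadjusted p under 0.05 was found for 37.0% of all genes and for 0 members. Mmp9 came nearest, with an unadjusted limma p of 0.0592. Alternatives that brought Mmp9 under an unadjusted limma p of 0.05 included quantile normalization, the array median, normexp and the filter on all 6 arrays. Array weights, eBayes with trend and robust, and leaving out sedentary 3 did so too. Timp4 was under 0.05 with quantile normalization, normexp, the deposited table and no scaling. Mmp14 was with normexp, Mmp2 with the deposited table and no scaling, and Timp2 and Tgfb1 with no scaling. In these fits 29.2 to 58.1% of all genes were. The members called are given at the end. The calls over all genes rested on having all the arrays. Without exercise 1 a single gene was called and without exercise 2, exercise 3, sedentary 2 or sedentary 3 limma called 0 of 25005, although 6686 to 8146 of them had an unadjusted p under 0.05, while 22.1% were called without sedentary 1. No member was called in any of these 6 fits.

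At the median, the differences of the members were smaller and their errors wider than those of all genes, though this did not hold for every member. Exercise means exceeded sedentary means for 5 of the 10 members and lay below them for the other 5. That split depended on the scaling. Members below 0 numbered 5 with quantile normalization, 3 with the array median, 4 with normexp, 7 with the deposited table and 9 without scaling. In the fit reported, the median log2 fold change of the members (exercise minus sedentary) was 0.04, beside 0.03 over all genes. The median of their absolute log2 fold changes was 0.13, beside 0.26. The median standard error (SE) was 0.20 for the members and 0.13 for all genes. The 95% confidence interval (CI) of the log2 fold change lay between -1 and 1 for 9 of the 10 members, with Mmp9 the exception, and for 78.9% of all genes. It lay between -0.5 and 0.5 for 4 members, Mmp2, Timp2, Loxl1 and Tgfb1. For each of the 10, the values within at least 1 group spanned more than the difference between the group means. The counts of intervals within 0.5 of 0 and of spans were not made over all genes.

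**Figure D1:**
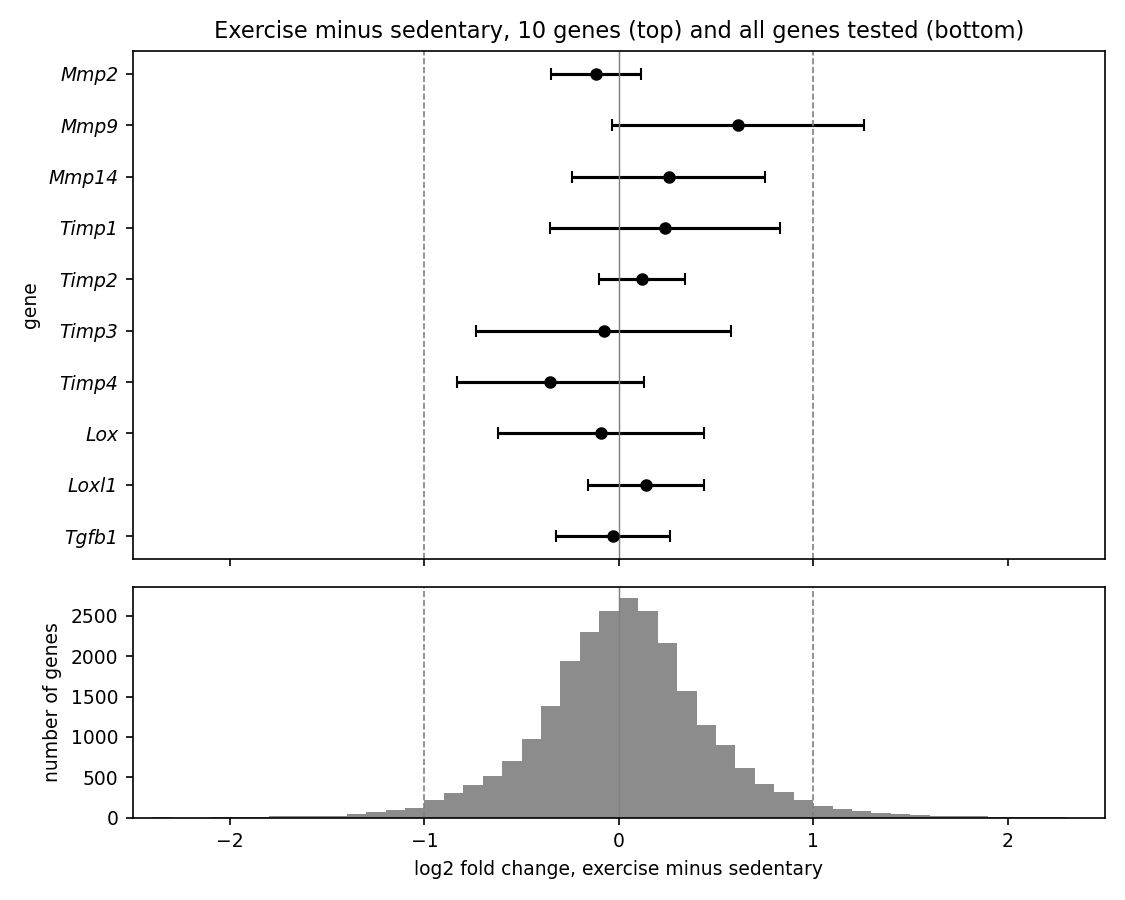
Log2 fold change (exercise minus sedentary) of each member with its 95% CI (top) and the histogram of the log2 fold changes of all 25005 genes and transcripts tested (bottom, number of genes per bin), with dashed lines at -1 and 1. All 10 intervals include 0, and Mmp9 is the member whose interval reaches past 1.

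In what follows, a level is the log2 of the processed signal minus the 75th percentile of the array, so that 0 is the brightness of the 75th percentile of probes. Levels of different probes are not comparable with each other, and each is set against the same probe on other arrays. In a whole muscle, fewer cells of a type and less RNA per cell cannot be told apart.

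Mmp9 had the largest difference of the 10. It encodes gelatinase B, a secreted protease that cuts denatured and basement membrane collagen and that neutrophils and activated cells release. Its level was -1.47, -0.86 and -1.54 on exercise arrays 1 to 3 and -2.26, -1.98 and -1.46 on sedentary arrays 1 to 3. Exercise 2 was highest and sedentary 1 lowest, and sedentary 3 lay above exercise 1 and exercise 3, so that the groups overlapped. The exercise mean was -1.29 ± 0.37 (SD, n = 3) and the sedentary mean -1.90 ± 0.41 (SD, n = 3). Mmp9 had a log2 fold change of 0.61 (SE 0.27, 95% CI -0.03 to 1.26, adjusted p = 0.151), or 1.53-fold with a CI from 0.978 to 2.40. Its second, dimmer probe gave a difference of 0.93 with an SE of 0.68, and on sedentary 1 that probe was not well above background. Normexp background correction was the alternative that called Mmp9, at a log2 fold change of 0.47 and an adjusted p of 0.0433, in a fit that called 32.7% of all genes. Without exercise 2 the difference was 0.40.

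Mmp2 encodes gelatinase A, the related secreted protease that is made mainly by fibroblasts and other resident cells. The level of Mmp2 was 2.69, 2.88 and 2.68 on the exercise arrays and 2.95, 2.86 and 2.80 on the sedentary arrays. Exercise 2 lay among the sedentary arrays, while exercise 1 and exercise 3 lay below them. For Mmp2 the log2 fold change was -0.12 (SE 0.095, 95% CI -0.35 to 0.11, adjusted p = 0.408), and its interval, from 0.785 to 1.08-fold, was among the narrower ones. Without exercise 2 the difference was -0.18, and without sedentary 1 it was -0.078.

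Mmp14 encodes a membrane-bound collagenase that activates the pro-form of MMP-2 at the cell surface. Its level was -0.98, -1.31 and -1.62 on the exercise arrays and -1.64, -1.78 and -1.27 on the sedentary arrays. Exercise 1 was highest and sedentary 2 lowest, with exercise 3 close to sedentary 1. A log2 fold change of 0.26 had a wide interval (SE 0.21, 95% CI -0.24 to 0.75, adjusted p = 0.399). Without exercise 1 it was 0.10.

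Among the inhibitors, Timp4 had the largest difference. It encodes a TIMP known from heart and skeletal muscle. Its level was 2.98, 3.40 and 3.29 on the exercise arrays and 3.94, 3.50 and 3.29 on the sedentary arrays. Sedentary 1 stood highest and exercise 1 lowest, and exercise 2 lay above sedentary 3. Timp4 had a log2 fold change of -0.35 (SE 0.20, 95% CI -0.83 to 0.13, adjusted p = 0.246), or of -0.31 by the second probe. It was -0.17 without sedentary 1.

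Timp1 encodes the inducible inhibitor that pairs with pro-MMP-9. Levels of 0.91, 0.21 and 0.91 were measured on the exercise arrays and of 0.49, 0.12 and 0.71 on the sedentary arrays. Exercise 2 lay below sedentary 1 and sedentary 3, and the other exercise arrays lay above all sedentary arrays. The log2 fold change was 0.24 (SE 0.24, 95% CI -0.35 to 0.83, adjusted p = 0.509), and it ranged from 0.08 without sedentary 2 to 0.47 without exercise 2.

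Timp2, the constitutive inhibitor that also takes part in the activation of pro-MMP-2 by MMP-14, varied little. Its level was 7.04, 7.04 and 6.87 on the exercise arrays and 6.93, 6.87 and 6.79 on the sedentary arrays. For Timp2 the difference was 0.12 (SE 0.091, 95% CI -0.10 to 0.34, adjusted p = 0.375). The second probe of Timp2 had the opposite sign, with a difference of -0.03 (SE 0.080). Quantile normalization turned the sign of the first probe as well, to -0.18 (adjusted p = 0.166).

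Timp3, an inhibitor that is bound to the matrix and also acts on ADAM proteases, differed more between mice than between groups. Its level was 4.03, 4.55 and 4.64 on the exercise arrays and 4.78, 4.71 and 3.96 on the sedentary arrays. Exercise 1 and sedentary 3 were low and the other 4 arrays lay between 4.55 and 4.78. The group difference was -0.08 (SE 0.27, 95% CI -0.73 to 0.58, adjusted p = 0.857), and its sign turned without exercise 1 (0.11), sedentary 1 (0.07) or sedentary 2 (0.04). By the second probe the difference was -0.12 (SE 0.27). The within-group SD of Timp3 was higher than that of 87.4% of all genes.

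The crosslinking enzymes did not pass the test either. Lox encodes lysyl oxidase, which oxidises lysines of collagen and elastin and so starts their crosslinking. Its level was 2.21, 1.66 and 1.99 on the exercise arrays and 1.85, 1.83 and 2.44 on the sedentary arrays. Sedentary 3 and exercise 1, the arrays with the lowest Timp3, were the arrays with the highest Lox. The log2 fold change was -0.09 (SE 0.22, 95% CI -0.62 to 0.44, adjusted p = 0.781), and it turned to 0.05 without exercise 2 and to 0.11 without sedentary 3. By the second, dimmer probe of Lox the difference was -0.23 (SE 0.18). Loxl1 encodes a related oxidase that acts on elastic fibres. Levels of Loxl1 were 2.68, 2.81 and 2.51 on the exercise arrays and 2.43, 2.44 and 2.70 on the sedentary arrays, with sedentary 3 among the exercise arrays. Loxl1 differed by 0.14 (SE 0.12, 95% CI -0.16 to 0.44, adjusted p = 0.437), by 0.071 without exercise 2, 0.22 without exercise 3 and 0.23 without sedentary 3.

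Tgfb1 encodes TGF-beta 1, which is secreted in a latent form and raises matrix synthesis once released. Its level was -0.97, -0.80 and -0.83 on the exercise arrays and -0.75, -0.71 and -1.05 on the sedentary arrays, so that the exercise arrays lay within the range of the sedentary ones. The log2 fold change was -0.03 (SE 0.12, 95% CI -0.32 to 0.26, adjusted p = 0.871), the smallest of the 10. Its second probe gave 0.16 (SE 0.22), and the sign of the first turned without exercise 1 (0.02), sedentary 1 (0.01) or sedentary 2 (0.03).

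**Figure D2:**
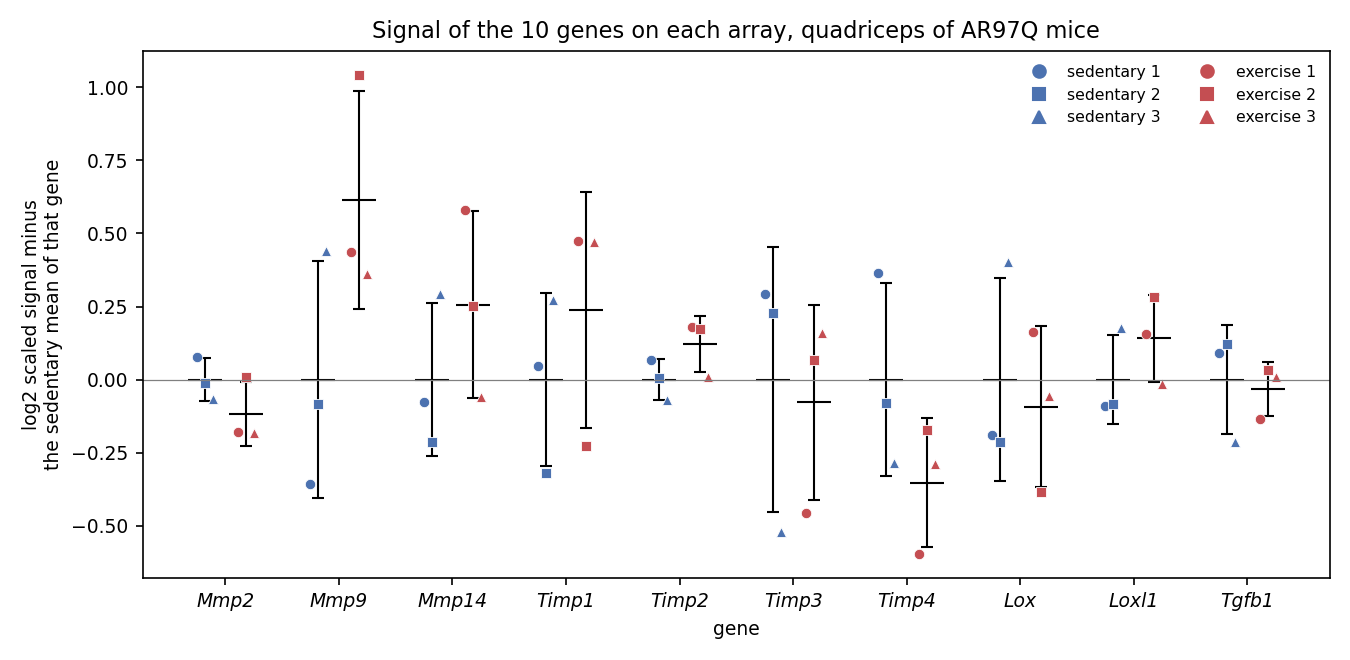
Level of each gene on each array (log2 scaled signal) minus the mean of the sedentary arrays for that gene, with bars for the group mean and SD (n = 3 per group). The groups overlap for every gene, and Timp3 is low on exercise 1 and sedentary 3, where Lox is high.

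The 6 members with 2 probes allowed the spread between mice to be compared with the disagreement between probes. For Timp3, the level spanned 0.82 over the 6 arrays by either probe, while the gap between the probes varied by 0.08. For Timp4 the span was 0.96 by the first probe and 0.84 by the second, and the gap varied by 0.15. Lox spanned 0.79 and 0.77, and its gap varied by 0.25. In these 3 genes the highest array was the same by both probes. For Timp4 both probes ranked the arrays alike, and for Timp3 only the lowest arrays, exercise 1 and sedentary 3, changed places. In Lox, exercise 3 lay above sedentary 1 and sedentary 2 by the first probe and below them by the second. Timp2 had a span of 0.25 by the first probe, and its gap varied by 0.23, about as much as the gene itself. In Mmp9 the gap varied by 1.81, more than the span of the brighter probe (1.40), although exercise 2 was highest and sedentary 1 lowest by both probes. The gap of Tgfb1 varied by 0.52, against a span of 0.34 by the brighter probe.

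The change of a protease relative to its inhibitor was taken within each array, where the scaling between arrays cancels. In 5 pairs, an exact permutation test of the group means (two-sided) could not go below p = 0.1 with 3 arrays against 3. For Mmp2 minus Timp2 the log2 difference was -4.35, -4.16 and -4.19 on the exercise arrays and -3.98, -4.01 and -3.99 on the sedentary arrays. Every exercise array lay below every sedentary array by the brighter Timp2 probe, the only pair of the 5 in which the groups did not overlap. The change of -0.24 had an exact permutation p of 0.1, the smallest possible, and 0.5 after Benjamini-Hochberg adjustment over the 5 pairs. With the mean of both Timp2 probes it was -0.16, and after quantile normalization -0.04. By the dimmer Timp2 probe alone the groups overlapped. Exercise 2 had Mmp2 at 2.88 and that probe at 2.86, and sedentary 2 had them at 2.86 and 2.88.

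In the other pairs the groups overlapped. Mmp2 minus Timp1 changed by -0.36 (exact permutation p = 0.3), with exercise 2 (2.67) among the sedentary arrays (2.09 to 2.74). The change was 0.38 for Mmp9 minus Timp1 (exact permutation p = 0.6), and it turned to -0.07 without exercise 2, the array with the highest Mmp9. For Mmp14 minus Timp3 it was 0.33 (exact permutation p = 0.5), and -0.02 without exercise 1. For Mmp14 minus Timp2 the change was 0.14 (exact permutation p = 0.5), and 0.004 without exercise 1. The adjusted p was 0.6 for each of these 4 pairs.

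**Figure D3:**
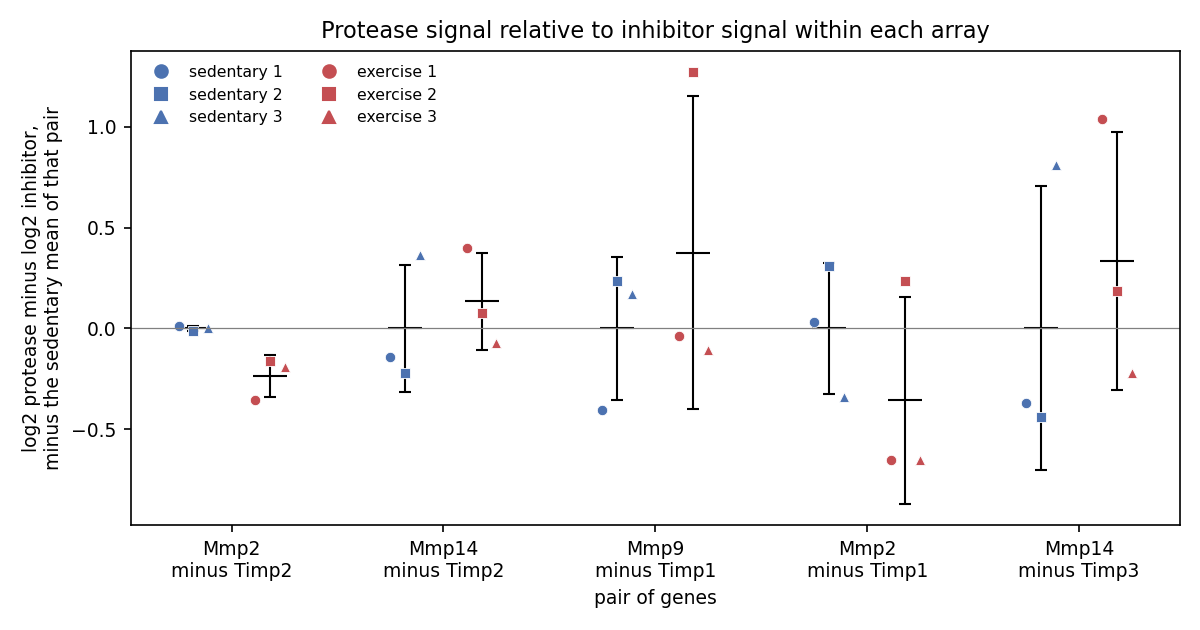
Log2 protease level minus log2 inhibitor level on each array, minus the sedentary mean of that pair, with bars for the group mean and SD (n = 3 per group). With the brighter Timp2 probe the groups do not overlap for Mmp2 minus Timp2, where the group means differ by 0.24, and they overlap for the other 4 pairs.

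The position of the arrays on the slide was partly shared with the group. All 6 arrays lay on 1 slide, the 3 exercise arrays and sedentary 1 in strip 1 and sedentary 2 and sedentary 3 in strip 2. With the strip as a block, the estimate is that of the exercise arrays against sedentary 1. Within strip 1 the difference was 0.97 for Mmp9 (adjusted p = 0.232 with the strip as a block), -0.72 for Timp4 (adjusted p = 0.184) and -0.37 for Timp3 (adjusted p = 0.612). It was 0.33 for Mmp14, 0.23 for Loxl1, 0.19 for Timp1, 0.10 for Lox, 0.05 for Timp2, -0.12 for Tgfb1 and -0.20 for Mmp2. Lox was the member whose sign turned. The strip left 3 calls among all genes, none of them a member.

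The wider families of these genes were counted by the same test, against the background of 17.6%. Of 17 other MMP genes, 9 passed the filter on dim probes and 0 were called, with a median log2 fold change of -0.19. The largest difference among them was that of Mmp8, the collagenase of neutrophils, at -1.51 (SE 1.20, adjusted p = 0.397). That difference came from sedentary 2, where its level was 0.08, while the other 5 arrays lay between -5.02 and -3.78. Of 22 ADAM and ADAMTS proteases tested, 1 was called. Adamts14, a procollagen N-proteinase, was higher by 0.54 (SE 0.14, adjusted p = 0.0480). That call was lost with the deposited table (0.38, adjusted p = 0.113), without scaling (0.069, adjusted p = 0.655), and with quantile normalization, the mean of probes or the probe with the largest SD (adjusted p = 0.0536 to 0.0585).

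Among other protease inhibitors and the plasminogen system, 2 of 10 tested genes were called, and both encode inhibitors outside the TIMP family. Serpine2, or protease nexin 1, an inhibitor of thrombin and plasminogen activators, rose by 0.86 on the log2 scale (SE 0.16, adjusted p = 0.0264), from 5.56, 5.03 and 5.06 on the sedentary arrays to 6.20, 5.98 and 6.07 on the exercise arrays. Cst3, or cystatin C, an inhibitor of cysteine proteases, rose by 0.55 (SE 0.094, adjusted p = 0.0239). Its level was 6.96, 6.75 and 6.75 on the sedentary arrays and 7.42, 7.34 and 7.36 on the exercise arrays. The groups were apart for both genes. Cst3 was not called after quantile normalization (0.22, adjusted p = 0.141) or without scaling (0.080, adjusted p = 0.548). The median over the 10 genes of the list was 0.32.

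Of 13 other crosslinking and collagen-modifying enzymes tested, 0 were called, and the median was 0.07. P4ha2, a collagen prolyl hydroxylase subunit, had the largest difference of that list (0.58, SE 0.17, adjusted p = 0.0655). Among 23 structural matrix genes (collagens, laminins, fibronectin, fibrillin and proteoglycans) 0 were called, and the median was 0.03. Fbn1, which encodes fibrillin 1, differed most, by 0.63 (SE 0.24, adjusted p = 0.115), and sedentary 3 (3.42) lay above exercise 3 (3.32).

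The other ligands, latency proteins, receptors and SMADs of the TGF-beta pathway gave 1 call in 25 tested genes. Ltbp3, which binds latent TGF-beta, fell by 0.44 on the log2 scale (SE 0.12, adjusted p = 0.0497). Its call was lost with the array median (-0.35, adjusted p = 0.0918) and with the mean of probes or the probe with the largest SD (adjusted p = 0.0533 and 0.0576). Of 11 target genes of TGF-beta, 0 were called. The median of these targets was -0.12.

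**Figure D4:**
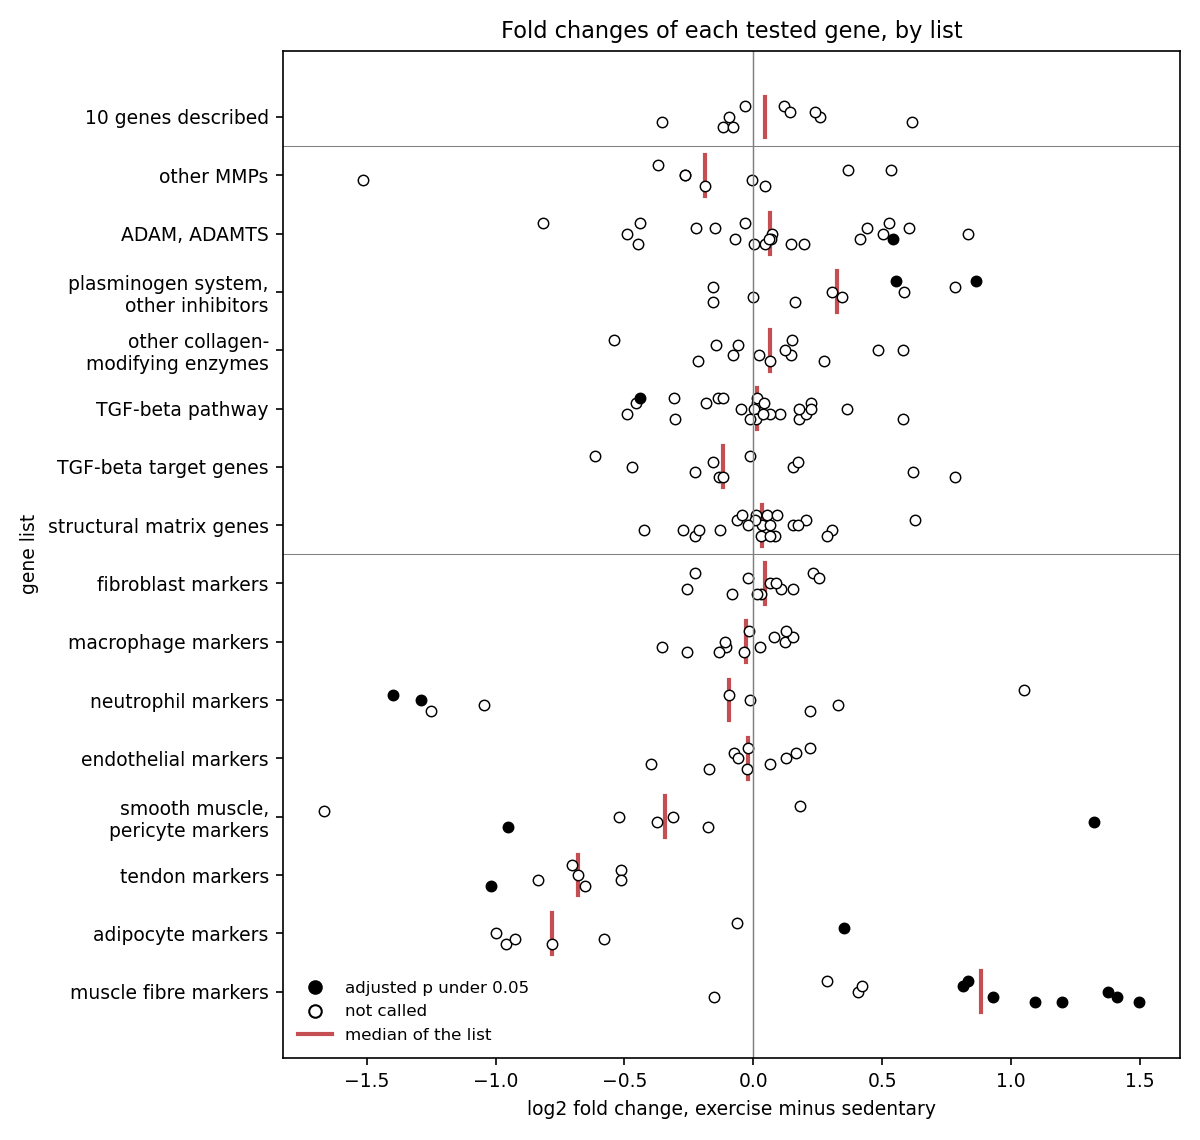
Log2 fold change (exercise minus sedentary) of each tested gene, by list, with filled points for an adjusted p under 0.05 and a bar at the median of the list. The 10 members and the matrix lists lie around 0 with few filled points, while 8 of 12 muscle fibre markers are filled, all to the right.

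Markers of the cell types that make these proteins were counted beside the members. The fibroblast markers (12 tested, median 0.05), macrophage markers (12 tested, median -0.03) and endothelial markers (10 tested, median -0.02) had 0 calls each. The genes with the largest differences were Pdpn (-0.26, adjusted p = 0.140), Mpeg1 (-0.35, adjusted p = 0.146) and Vwf (-0.40, adjusted p = 0.0867), in that order of lists. The summed fibroblast marker signal, in units of the 75th percentile of each array, was 622 to 694 on the exercise arrays and 593 to 744 on the sedentary arrays. That of the macrophage markers was 86.9 to 101 and 84.4 to 98.2, and that of the endothelial markers 95.4 to 128 and 94.0 to 105.

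Of 9 neutrophil markers tested, 2 fell. Retnlg fell by 1.40 on the log2 scale (adjusted p = 0.0234) and Camp fell by 1.29 (adjusted p = 0.0435), and the median of the list was -0.10. Retnlg was well above background on 2 of the 3 exercise arrays, so that its value there is close to the background. With normexp neither was called, at -0.21 for Retnlg (adjusted p = 0.0892) and -0.44 for Camp (adjusted p = 0.0881), and Camp was also not called with quantile normalization, with the array median or without a filter (adjusted p = 0.0510 to 0.0626). The other neutrophil markers tested did not pass. Differences were positive for Cxcr2 (1.05, adjusted p = 0.357), Elane (0.33, adjusted p = 0.0719) and Mpo (0.22, adjusted p = 0.638). They were negative for S100a8 (-1.25, adjusted p = 0.118), S100a9 (-1.04, adjusted p = 0.134), Csf3r (-0.10, adjusted p = 0.434) and Ly6g (-0.01, adjusted p = 0.916). Cxcr2 was well above background on 2 exercise arrays and 1 sedentary array, and Mpo on 2 exercise arrays and 3 sedentary arrays. The part of neutrophils in the values of Mmp9 was not tested. The summed neutrophil marker signal was 66.1 to 71.8 on the exercise arrays and 71.9 to 77.1 on the sedentary arrays.

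The medians of the remaining marker lists lay farther from 0 than that of the members, a difference that was not tested. Of 12 skeletal muscle fibre markers, all tested, 8 rose and 0 fell, with a median of 0.88. Ckm, the muscle creatine kinase, rose by 1.50 (adjusted p = 0.0234) and Casq1, the calcium store protein of fast fibres, by 1.41 (adjusted p = 0.0276). The summed signal of these markers was 5289 to 6137 on the exercise arrays and 2777 to 3862 on the sedentary arrays. Each of the 7 tendon markers had a negative difference, with a median of -0.68, and Chad, which encodes chondroadherin, fell by 1.02 (adjusted p = 0.0359), a call that was lost with array weights (-0.69, adjusted p = 0.0703). The summed tendon marker signal was 29.1 to 38.7 on the exercise arrays and 46.2 to 64.8 on the sedentary arrays. Of 7 adipocyte markers, 1 rose (Lep, leptin, by 0.35, adjusted p = 0.0415), while the median was -0.78, and the summed signal was 238 to 625 on the exercise arrays and 423 to 545 on the sedentary arrays. Lep was not called in the deposited table (0.19, adjusted p = 0.200), without scaling (-0.12, adjusted p = 0.488), with eBayes with trend and robust or with the probe with the largest SD (adjusted p = 0.0566 and 0.0532).

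Smooth muscle and pericyte markers (8 tested, median -0.34) gave 1 call in each direction. Myh11, smooth muscle myosin, fell by 0.95 (adjusted p = 0.0234). Acta2, smooth muscle actin, rose by 1.32 with its brightest probe (adjusted p = 0.0234), while its other probes gave -0.89 and -0.80. The part of these markers in the values of the 10 members was not tested. Of the 12 genes named here as called, 9 were also called without sedentary 1, and 0 without any of the other 5 arrays. With the replicate block 0 of the 12 were called. Within strip 1 the difference was smaller in size for Casq1 (0.81), Ckm (1.03), Serpine2 (0.52), Cst3 (0.41) and Adamts14 (0.31). The same held for Ltbp3 (-0.24), Retnlg (-1.08), Acta2 (1.11) and Myh11 (-0.88). It was larger in size for Camp (-1.53), Chad (-1.21) and Lep (0.42).

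Several members share their locus with another gene. By annotation, Timp1 lies within Syn1, Timp4 within Syn2 and Timp3 within Syn3, the synapsin genes of nerve terminals, and Timp2 overlaps Cep295nl. Syn1 differed by 0.50 (adjusted p = 0.478) and was well above background on 4 of the 6 arrays. Syn2 differed by -0.13 (adjusted p = 0.368), and no probe of Syn3 was well above background on any array. Cep295nl differed by 0.06 (adjusted p = 0.783). None of the 3 that could be tested was called.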

How the data were processed

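Quadriceps RNA of 6 AR97Q mice was hybridised with a single dye to Agilent SurePrint G3 mouse arrays, 1 array per mouse. The authors used Feature Extraction 12.1.0.3 on the scans and deposited, per array, the processed signal of each spot, an intensity on a linear scale with the background subtracted and spatial trends removed. They also deposited a table of intensity values, each column of which was the processed signal times 1 factor (1.33 to 1.88). The sources used here name iDEP, an FDR under 0.05 and an absolute log fold change of at least 1 but do not give a scaling between arrays.

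Starting with the deposited intensities, control spots (3671 of 62976) and outlier spots were left out, log2 was taken, spots of a probe were averaged and the 75th percentile of each array was subtracted. The 75th percentile was 251 to 257 on exercise and 310 to 384 on sedentary arrays, the share of probes well above background was 54.6 to 59.9%, and saturation was not seen in any spot. Probes with a missing value (22) were left out, and of 56605 the analysis kept 32726 that rose well above background on 3 arrays or more. Probes were named through accessions in a GRCm38 table, used for names and for overlap of genes (34566 matched), and 9258 of the tested features kept the file's identifier. The brightest probe stood for a gene. The test between groups was that of limma (version 3.58.1, R 4.3.3) with lmFit and eBayes, two-sided, without covariates and with Benjamini-Hochberg adjustment over 25005, and pairs of genes with an exact permutation test. The number of arrays limits the precision. The fit was tested on simulated data with changes of at least 1 on the log2 scale, larger than that of any member. That test does not bear on changes of the size found for the members.

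The members and lists were chosen with earlier results of these data known. Beside the members, the text names of each list at most 2 called genes that rose most and 2 that fell most, or, with none called, the gene with the largest difference. 1 gene that this rule would name is not reported here. Alternatives were quantile, median and no scaling, the deposited table, normexp (offset 50), other filters (none, or all 6 arrays), all probes of a gene averaged or the probe with the largest SD, each array left out, the replicate number or strip as a block, array weights, and eBayes with trend and robust. No probe or genomic sequence was used here.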

Additional observations from a re-analysis of the deposited data

How the results depend on the processing

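Each member was tested under 19 alternatives, and of the resulting values 163 kept direction and side of the threshold, 4 crossed it and 23 turned sign without a call. That count was partly fixed in advance. The other filters, the replicate block and eBayes with trend and robust left the differences of the members as they were. With the replicate block, or an array other than sedentary 1 left out, at most 1 gene was called, so that crossing the threshold was hardly possible. No member was called higher and none lower in the fit reported, and this held except with normexp, where 1 was called higher (Mmp9, 0.47), and without scaling, where 3 were called lower (Mmp2, -0.59, Timp4, -0.83, and Tgfb1, -0.50). Without scaling the median of all genes was -0.45, 47.6% of genes were called and 94.8% of the calls were lower (34.8% in the fit reported). Relative to that median the 3 were at -0.14, -0.38 and -0.06. The other signs that turned without scaling were those of Mmp14 (-0.22), Timp1 (-0.23), Timp2 (-0.35), Loxl1 (-0.33) and Lep (-0.12). Over all genes, 2868 were called higher and 1530 lower, against 1864 and 1364 with quantile normalization, 2680 and 875 with the array median (24.6% lower), 617 and 11280 without scaling, 1172 and 3201 with the deposited table (median -0.13, 73.2% lower), 6173 and 2006 with normexp (24.5% lower), 9741 and 1918 without a filter and 5124 and 3627 with array weights.

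Signs also turned for Timp2 (-0.18) and Tgfb1 (0.016) with quantile normalization, Timp3 (0.010) and Tgfb1 (0.056) with the array median, Timp2 (-0.037) and Loxl1 (-0.016) in the deposited table, Tgfb1 with normexp (0.087), the mean of probes (0.064) or the probe with the largest SD (0.16), Acta2 with the mean of probes (-0.12), Lox (0.10) and Mmp8 (0.080) with the strip, and Lox (0.054) with array weights. Leaving out 1 array, the range was -0.34 to 0.11 for Timp3, -0.14 to 0.030 for Tgfb1 and -0.22 to 0.11 for Lox. For the pairs it was -0.017 to 0.74 for Mmp14 minus Timp3 and -0.073 to 0.62 for Mmp9 minus Timp1. The cause was not tested.

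Deviations of same-numbered arrays correlated weakly, at 0.02, 0.08 and 0.04. Exercise 2 and exercise 3 correlated best with their own number, and exercise 1 with sedentary 3 (0.075). With 3 arrays per group these values cannot settle whether the replicate numbers pair the arrays. With the replicate block, 0 genes were called (8591 at an unadjusted p under 0.05), 0 members among them. The differences of the members and pairs are the same with that block, such as -0.24 for Mmp2 minus Timp2, and the adjusted p of Mmp9 was 0.193. With 3 mice per group, the intervals leave room for rises of up to 2.40-fold in Mmp9 and 1.78-fold in Timp1. They also leave room for falls to 0.561-fold in Timp4 and 0.601-fold in Timp3.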
